A study of Mus musculus with 13 samples.

Results

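The anti-HA and control IgG libraries of fibroblasts that had not received doxycycline were compared, 2 libraries with each antibody, which are 4 of the 13 libraries of the series. Their peak lists were taken on chromosomes 1 to 19 and merged wherever intervals shared at least 1 bp, which gave 5571 regions. The lists of all 13 libraries merge in the same way into 83703 regions. A region with a peak in both HA lists and in neither IgG list is called HA-specific, a region with a peak in all 4 lists is called shared, and a region with a peak in both IgG lists and in neither HA list is called IgG-only. The classes rest on these peaks, so the strengths of the 4 lists in each class are given as a description. The peaks of the other 9 libraries were not used to form the classes.

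The cells were mouse embryonic fibroblasts (MEFs) from mice with Pax7-CreERT2, the Cre-dependent reporter Rosa26-LSL-tdTomato and CAG-rtTA3. All of them, the uninduced ones included, had been transduced with a lentivirus in which a doxycycline-responsive TRE promoter drives Myf6 with 3 HA tags, and all carried the rtTA3 activator. The uninduced cells were kept for 24 h in iMPC medium with no doxycycline and none of the compounds. The +Myf6 cells received 2 µg/mL doxycycline for the same time, and a further treatment (+Myf6+F/R/C) added 5 µM Forskolin, 5 µM RepSox and 3 µM CHIR99021 to the doxycycline. Reactions held 500000 cells and 5000 Drosophila spike-in nuclei, and each HA reaction was split from the nuclei of the IgG reaction with its number. The library names of the uninduced pairs begin with H7 for replicate 1 and H8 for replicate 2, and what these prefixes stand for is not stated in the labels. Separate cultures are not named for the replicates either, so p-values and SDs measure only the spread between these libraries, which may be technical. Peak lists hold no expression values, and the identity of the cells was not checked here.

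Myf6 (also called MRF4) is a basic helix-loop-helix factor of the myogenic family, which binds E-box sequences as a dimer with an E-protein and activates genes of skeletal muscle. In CUT&RUN a nuclease is tethered to an antibody on chromatin, cuts the DNA around it, and the released fragments are sequenced. A control IgG recognises no chosen target, so its fragments show where the nuclease cuts in the absence of a specific antibody. Open chromatin and repeated sequences are known places of such background. An anti-HA library of cells without induced HA-tagged protein is a further control, which can hold background cutting, other proteins that the antibody recognises and any tagged protein made without the inducer.

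Many more peaks were called with the HA antibody than with IgG. The HA lists held 2130 peaks in replicate 1 and 4138 in replicate 2, and the IgG lists held 472 and 742. Both HA lists were longer than both IgG lists. The means were 3134 ± 1420 for HA and 607 ± 191 for IgG (SD, n = 2 each), a ratio of 5.16 or 2.37 on the log2 scale. Within the pairs the ratio was 4.51 in replicate 1 and 5.58 in replicate 2. An exact two-sided permutation test gave p = 0.333, the smallest value that 2 libraries against 2 allow, so no comparison of these groups could pass 0.05. HA peaks covered 556 and 787 kb, and IgG peaks covered 112 and 157 kb. The HA libraries were also deeper, with a mean of 30.6 and 23.7 fragments per 10 kb of background, against 22.7 and 17.97 in the IgG libraries.

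The excess of HA peaks lay among weak peaks. The authors' fold enrichment (summit pileup over local background within the same library) had a median of 6.09 and 5.65 in the HA lists and of 8.70 and 6.48 in the IgG lists. The median −log10 q was 5.07 and 3.86 in the HA lists and 12.8 and 5.97 in the IgG lists. Folds and q-values are each relative to their own library, so the values of different lists stand side by side as a description. At a −log10 q of at least 5 there were 1086 and 1430 HA peaks and 419 and 455 IgG peaks, which are ratios of 2.59 and 3.14. At 10 or more the counts were 352 and 417 against 286 and 251, with ratios of 1.23 and 1.66. At 20 or more, a threshold added after the data were seen, the order turned: 126 and 128 HA peaks stood against 137 and 138 IgG peaks. Both IgG lists were then above both HA lists, by a small margin. At 100 or more the HA lists held 8 and 4 peaks and the IgG lists 6 and 4.

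**Figure D1:**
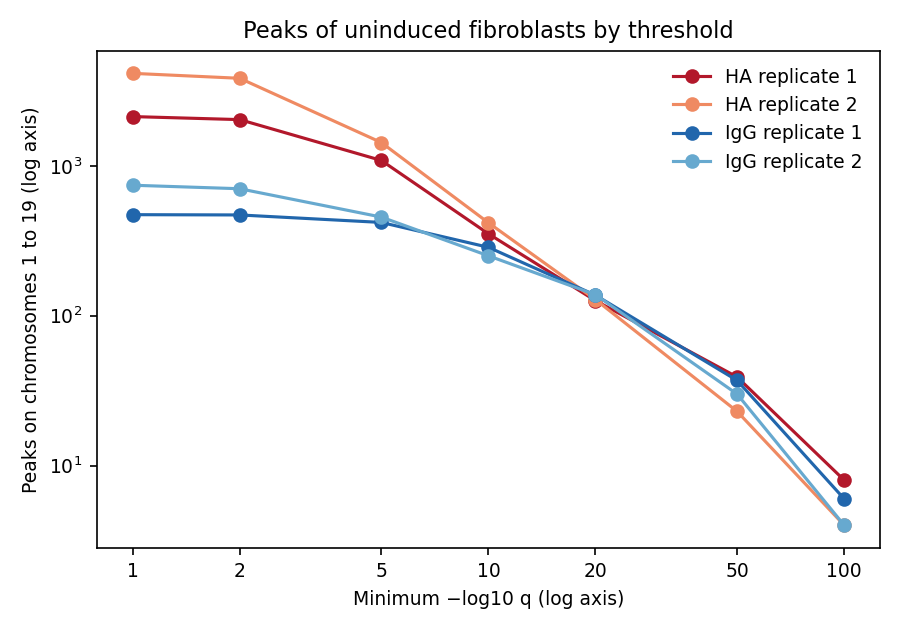
Number of peaks on chromosomes 1 to 19 (log axis) in each of the 4 libraries that reach a minimum −log10 q (log axis). The HA lines start at 2130 and 4138 and the IgG lines at 472 and 742, and the 4 lines lie between 126 and 138 peaks at a minimum of 20.

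Most regions were found in a single HA library. Of the 5571 regions, 2977 (53.4%) had a peak in HA replicate 2 alone and 1081 (19.4%) in HA replicate 1 alone. The HA-specific class held 690 regions, so percent called was 12.4 (exact 95% Clopper-Pearson interval 11.5 to 13.3; all intervals given here cover counting error only). The shared class held 272 regions, 4.88% of all (4.33 to 5.48). The IgG-only class held 11 regions, 0.197% of all (0.0986 to 0.353). IgG replicate 2 alone accounted for 293 regions and IgG replicate 1 alone for 45. The other 202 regions combined peaks of HA and IgG lists in other ways, the most frequent being HA replicate 2 with IgG replicate 2 (53 regions). Taken without regard to replicate, 4748 regions (85.2%) had an HA peak and no IgG peak, 474 had both kinds and 349 had an IgG peak only.

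**Figure D2:**
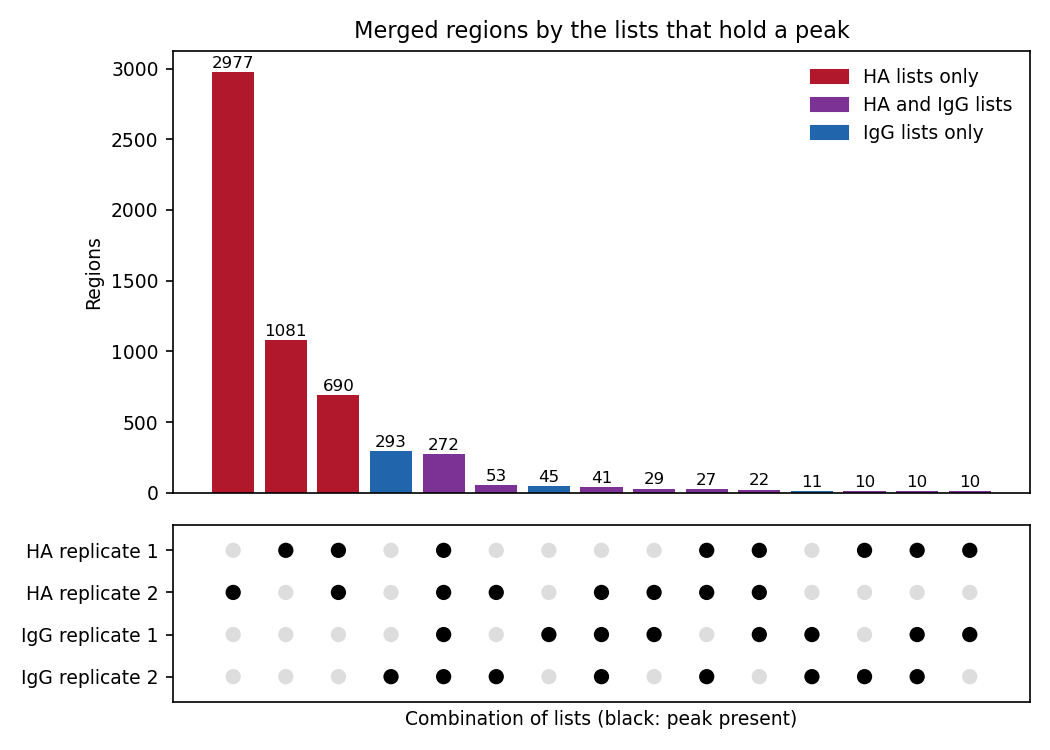
Number of merged regions (bars, axis from 0) for each combination of the 4 lists, with a black dot below for each list that holds a peak there. The 3 tallest bars, of 2977, 1081 and 690 regions, are combinations of HA lists without IgG, and the combination of all 4 lists has 272 regions.

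Most regions with a peak in both IgG lists also had HA peaks, while most regions in both HA lists had no IgG peak. Of the 334 regions with a peak in both IgG lists, 272 (81.4%; 76.8 to 85.5) had a peak in both HA lists and 323 (96.7%) in at least 1. Of the 1011 regions with a peak in both HA lists, 272 (26.9%; 24.2 to 29.8) had a peak in both IgG lists and 690 (68.2%; 65.3 to 71.1) in neither. Within replicate 1, 1811 of 2130 HA peaks (85.0%; 83.4 to 86.5) had no peak in the paired IgG list, and within replicate 2 the count was 3728 of 4138 (90.1%; 89.1 to 91.0). In the other direction, 344 of 472 IgG peaks of replicate 1 (72.9%) and 415 of 742 of replicate 2 (55.9%) met a peak of the paired HA list. Of the 823 regions with any IgG peak, 349 had no HA peak. The HA lists were 4.51 and 5.58 times as long as the paired IgG lists. This length difference limited in advance the share of HA peaks that could meet an IgG peak. With HA lists cut to IgG length, 48.7 and 57.7% of HA peaks had no paired IgG peak.

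The overlap depended on peak strength, ranked by −log10 p within each list. In the strongest decile of HA replicate 1, 80.3% of 213 peaks (74.3 to 85.4) had an IgG peak in the paired list. The second decile had 31.9%, the third 11.7% and the weakest 0 of 213, which allows a share of up to 1.72%. In HA replicate 2 the shares were 62.8% of 414 peaks in the strongest decile, 15.0% in the second and 1.45% in the weakest. All peaks in the strongest decile of each IgG list, 48 and 75 in number, lay at a peak of the paired HA list. In the weakest decile 31.9% and 5.41% did. The HA lists thus shared most peaks of their strongest decile with IgG, and the HA peaks free of IgG made up nearly all of the weaker deciles. The replicates of HA shared strong peaks too, and weak ones less often. Of HA replicate 1 peaks, 95.3% in the strongest decile and 20.7% in the weakest were also in replicate 2, and the values in the opposite direction were 74.6% and 7.51%.

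**Figure D3:**
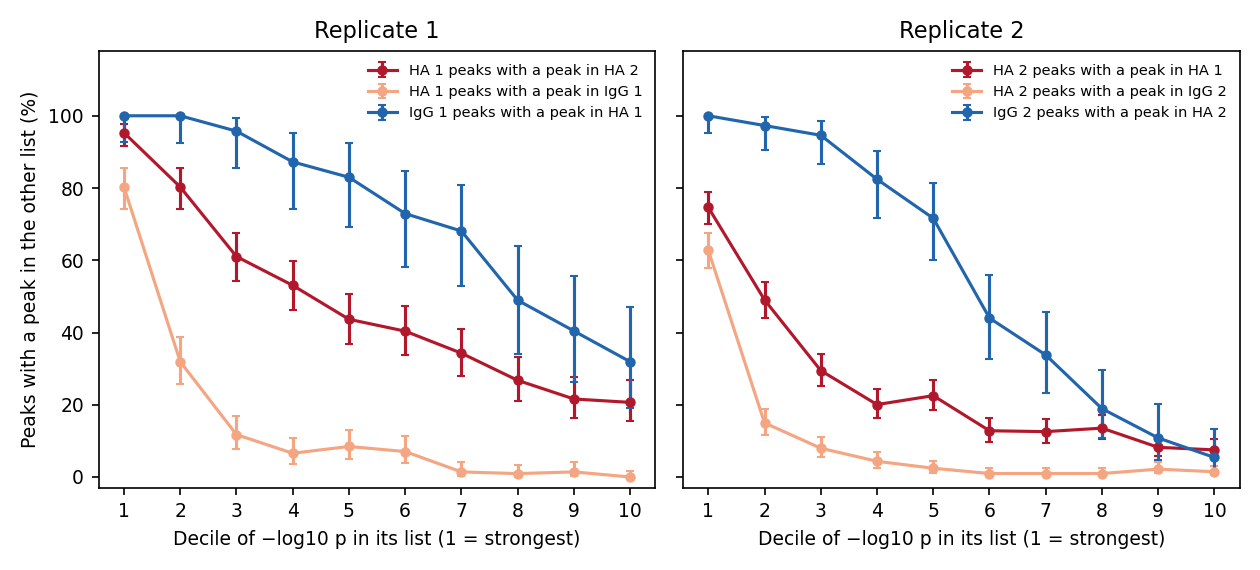
Share of peaks (%) of a list that overlap a peak of another list, by decile of −log10 p (1 is the strongest), for replicate 1 and replicate 2, with exact 95% intervals as bars. The share of HA peaks with a peak in the paired IgG list starts at 80.3% and 62.8% and is under 40% from the second decile on, while the IgG lines start at 100%.

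HA-specific regions had moderate peaks in both libraries. The median fold was 6.42 in replicate 1 and 6.30 in replicate 2, with medians of 12 and 9 fragments over the summit. Their highest summit pileups were 64 and 43 fragments. In their own lists these peaks had median percentiles of 58.9 and 65.5, so they lay above the middle and below the top. The merged regions were 152 to 960 bp wide, with a median of 342 bp. Summits of the 2 libraries lay a median of 62 bp apart, and 293 of 690 pairs of summits (42.5%) were within 50 bp. The local background, relative to the lowest in the list, had a median of 2.02 and 2.41, and 18 and 34 of the 690 regions exceeded 5.

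The leading HA-specific region lay at chr13:91519180-91519700 in GRCm39. Its folds were 14.0 and 12.5, its pileups 43 and 30 fragments, and its summits 6 bp apart. The second, at chr18:77142194-77142933, had folds of 10.5 and 12.5 and pileups of 31 and 28 fragments. The third, at chr3:144349095-144349773, had folds of 10.2 and 9.76 and pileups of 48 and 29. Thus the best-ranked regions of the class had 20 to 48 fragments over the summit in replicate 1 and 19 to 30 in replicate 2. The other 7 of the 10 were chr8:41051770-41052290, chr17:48312587-48313148, chr7:101714147-101714850, chr10:107498439-107498727, chr8:70169524-70170023, chr11:102894022-102894672 and chr15:95654996-95655553, with folds between 8.30 and 14.1. All 10 had a peak in each of the 4 induced HA lists, where 44.9% of all 5571 regions and 85.5% of the HA-specific class did. None of the 10 met any of the other 4 IgG lists, as was the case for 88.1% of all regions and 96.7% of the class. An H3K27me3 peak was found at 8 of the 10, where 34.1% of all regions and 40.1% of the HA-specific class had one. The 10 regions were 289 to 740 bp wide, where the median over all regions was 166 bp, and wider regions have more bases to overlap. No gene names or sequences are given for these regions because no genome or annotation of GRCm39 was used.

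Each of the 19 autosomes held HA-specific regions. Their density over the span covered by peaks ran from 20.8 per 100 Mb on chromosome 14 to 42.4 on chromosome 19. The nearest HA-specific neighbour was a median of 836 kb away, and 15 regions (2.17%) had one within 10 kb. Only 3 groups of 3 or more regions had gaps of at most 100 kb. The tightest was at chr10:3064508-3066686, with 3 regions, a local background at a median of 44.8 times the lowest of the list, and none present in all 4 induced lists. The groups at chr13:28594363-28640259 and chr15:25761989-25848347 had backgrounds of 3.59 and 2.68 times the lowest, and their 3 regions each were in all 4 induced HA lists.

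Shared regions held strong peaks of all 4 libraries. Their median folds were 10.2 and 11.1 in the HA lists and 11.7 and 11.5 in the IgG lists, and their median pileups were 24 and 20 fragments for HA and 25 and 21.5 for IgG. In the same HA lists the HA-specific class had 12 and 9 fragments. Summits coincided more closely than in HA-specific regions. The median distance between the HA summits was 16 bp, between HA replicate 1 and IgG replicate 1 16.5 bp, between HA replicate 2 and IgG replicate 2 10 bp, and between the IgG summits 10 bp. Depending on the pair of libraries, 78.3 to 86.4% of summits lay within 50 bp.

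The pileups of some shared regions reached an upper limit of their list. The highest pileup was 304 and 216 fragments in the HA lists and 220 and 234 in the IgG lists. In each of the 4 lists this was exactly 2 times the width of its narrowest peak, which was 152, 108, 110 and 117 bp. Of the shared regions, 16 and 8 were at 90% or more of that limit in the HA lists, and 18 and 6 in the IgG lists. HA-specific regions stayed far below it. Differences in strength between HA and IgG at the strongest shared regions therefore cannot be read from these values.

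**Figure D4:**
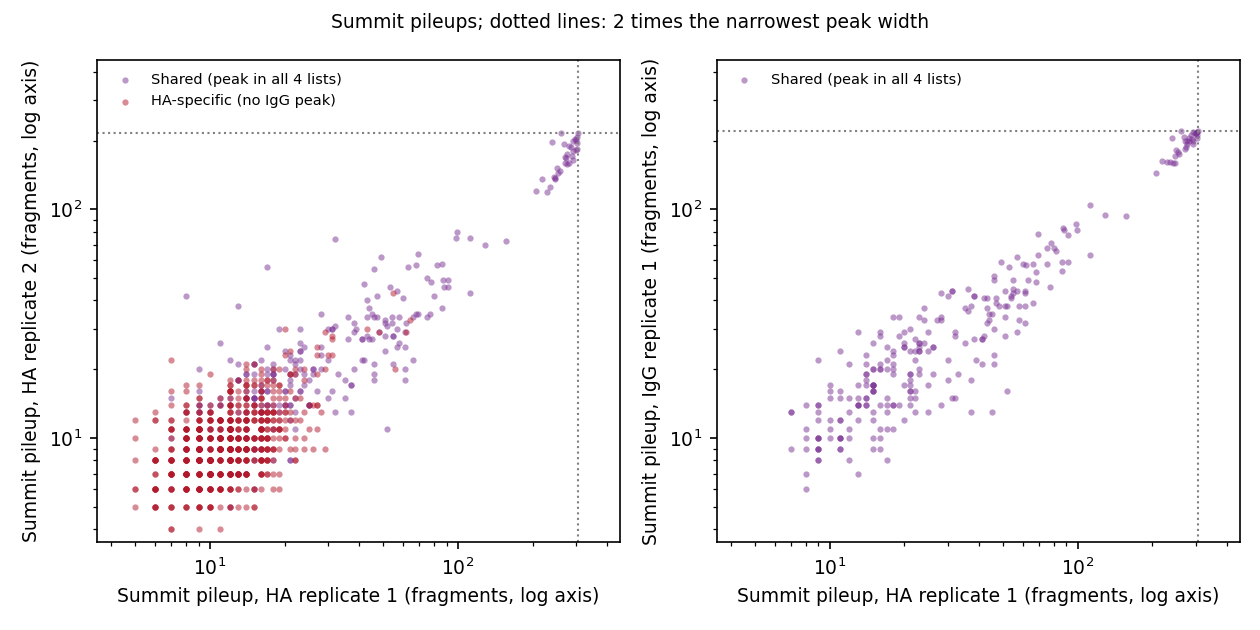
Summit pileups in fragments (log axes) of HA replicate 1 against HA replicate 2 (left) and against IgG replicate 1 (right), 1 point per region, with dotted lines at 2 times the narrowest peak width of each list. HA-specific regions reach 64 and 43 fragments, and the shared regions extend to the limits of 304 for HA replicate 1, 216 for HA replicate 2 and 220 for IgG replicate 1.

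The leading shared region was chr6:103625935-103626331. Its folds were 40.4 and 46.1 in the HA lists and 47.8 and 49.5 in the IgG lists, and its pileups were 240, 197, 206 and 214 fragments in the same order. The second, chr12:3159772-3160223, had folds of 32.5 and 37.7 with HA and 37.4 and 40.1 with IgG. The third, chr9:35216435-35216986, had folds of 26.7, 26.6, 26.6 and 28.0. Most pileups of these 3 regions were close to the limit of their lists or at it, so the order of HA and IgG is not read from them. The next 3 were chr16:97908603-97908963, chr9:24453231-24453568 and chr4:70296254-70296564, with folds between 28.9 and 37.4. Another pair among the 10 lay on chromosome 2, at chr2:98496586-98497711 and chr2:98492548-98493344. They had folds between 4.89 and 5.67 although their pileups were 203 to 304 fragments, over local backgrounds of 129 to 192 times the lowest of the list. The last pair was chr12:67105944-67106655 and chr12:97028132-97028636. All 10 had a peak in every one of the other 9 libraries. Of all regions, 44.9% were in all 4 induced HA lists, 4.92% in all 4 other IgG lists and 34.1% in the H3K27me3 list. For the shared class these shares were 84.9, 83.5 and 80.1%.

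Shared regions were unevenly spread. Chromosome 9 held 50 of the 272, and 24 of these formed a single group at chr9:3000034-3038268, where the local background had a median of 347 times the lowest. Overall 40 shared regions began within the first 4 Mb of a chromosome, against 10 of the 690 HA-specific regions. Further groups were at chr3:3000056-3041411 (5 regions), chr9:124254661-124259210 (5), chr17:13771231-13875544 (4) and chr2:98492548-98497711 (4). The share with another shared region within 10 kb was 15.8%, although the class held fewer regions. A local background above 5 times the lowest was found at 67 and 69 of the shared regions in the HA lists and at 78 and 81 in the IgG lists.

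IgG-only regions were few, and their peaks were weaker than those of shared regions in the same lists. All 11 had pileups of 5 to 16 fragments in IgG replicate 1 and of 7 to 14 in replicate 2, with median folds of 7.58 and 7.60. Shared regions had median folds of 11.7 and 11.5 in these lists. HA-specific regions had lower median folds, 6.42 and 6.30, in the HA lists, though folds are relative to their own library. The IgG-only regions had a median width of 151 bp, and their summits lay a median of 11 bp apart. The first, chr16:15703372-15703535, had folds of 10.0 and 8.29, a peak in all 4 other IgG lists, and no peak in any HA list of the series or in the H3K27me3 list. The second, chr1:65460867-65460990, had folds of 9.20 and 7.60 and was present in all of the other 9 lists. Of the 11, 8 were found in all 4 other IgG lists, where 4.92% of all regions were. At least 1 induced HA list held 10 of the 11, a share near the 78.5% of all regions. The class therefore held 1 region that no HA list of the series contained.

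Regions of a single list were weaker, by median fold and pileup, than the HA-specific or IgG-only regions in the same list. The median fold was 5.61 with 9 fragments for HA replicate 1 alone, and 5.47 with 7 fragments for HA replicate 2 alone. IgG replicate 2 alone had a median fold of 5.57 with 6 fragments, and IgG replicate 1 alone 6.55 with 8 fragments. Median widths were 176 bp and 139 bp for the HA libraries and 110 and 117 bp for IgG replicates 1 and 2, and the IgG values equal the narrowest width of the list.

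The other libraries give readouts that did not form the classes, although the cells of all treatments carry the same transgene and the libraries differ in depth. HA-specific regions nearly all had an HA peak after induction. The +Myf6 lists had a peak at 93.9% (replicate 1) and 90.4% (replicate 2) of them, where they met 59.4 and 60.8% of all regions of the 4 uninduced lists. The +Myf6+F/R/C lists had one at 97.5 and 93.5%, where they met 67.2 and 62.3% of all regions. All 4 induced HA lists had a peak at 590 of the 690 regions (85.5%; 82.7 to 88.1), where all regions of the 4 uninduced lists had a percent called of 44.9. Windows of the same width moved by 2 kb met a peak in 1.45 to 2.61% of cases. Counted at the summit base alone, all 4 lists had a peak at 78.4% of HA-specific regions and at 39.3% of all regions. Of HA-specific regions, 10 (1.45%; 0.697 to 2.65) had none of the 4 induced peaks, against 21.5% of all regions. These 10 included chr2:105083289-105083440, with folds of 6.82 and 5.33, and chr4:20191817-20191970, with folds of 7.50 and 7.17, and none of the 10 had an H3K27me3 peak. Among all 1200 regions without an induced peak 10.6% had one, so with 10 regions this count is near that of the rest.

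The induced peaks at HA-specific regions ranked high in their lists, and those at shared regions had higher median ranks. Ranked within the induced lists, the peaks they met had median percentiles of 92.5 and 90.8 in the +Myf6 lists. In the lists of +Myf6+F/R/C cells the medians were 95.8 and 93.9. The strongest decile held 58.3 and 52.1% of them in the +Myf6 lists, and 76.1 and 61.9% under +Myf6+F/R/C. The peaks met by shared regions had median percentiles of 96.9 and 99.1 in the +Myf6 lists, and of 96.2 and 96.8 with the compounds. Of these peaks, 69.6 and 86.1% were in the strongest decile of the +Myf6 lists, and 66.3 and 70.4% with the compounds. In replicate 1 with the compounds this share was below that of the HA-specific class. Peaks met by regions of HA replicate 2 alone had medians of 74.98 to 81.1, and those met by regions of IgG replicate 2 alone 56.8 to 64.8. The class that both uninduced HA libraries called thus ranked higher in all 4 induced lists than the classes called once. Regions of HA replicate 1 alone and HA replicate 2 alone were found in all 4 induced lists in 50.4 and 34.7% of cases, and in none of them in 13.6 and 28.1%. Of the regions of IgG replicate 2 alone, 12.3% were in all 4 and 48.1% in none.

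Shared regions were present in nearly every library of the series. All 4 induced HA lists had a peak at 231 of the 272 (84.9%; 80.1 to 89.0), and all 4 other IgG lists at 227 (83.5%), where the percent called over all regions was 4.92. Only 1 shared region met no other IgG list. By contrast, 667 of the 690 HA-specific regions (96.7%; 95.04 to 97.9) met none of the other 4 IgG lists, where 88.1% of all regions met none. The share in single IgG lists of induced cells was 0.435 to 2.03% for HA-specific regions and 90.4 to 98.9% for shared regions. Over all regions it was 6.14 and 8.02% in the IgG lists of +Myf6 cells. For the IgG lists of +Myf6+F/R/C cells it was 9.17 and 7.90%. Regions of HA replicate 1 alone and HA replicate 2 alone met none of these 4 lists in 98.1 and 96.1% of cases. Absence from them was therefore not particular to the HA-specific class. The presence of shared regions in IgG lists, first found in uninduced libraries, was seen again in the IgG libraries of the other treatments.

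H3K27me3, a histone mark laid down by Polycomb complexes on repressed chromatin, was mapped in a single library, from the +Myf6+F/R/C treatment, and not in uninduced cells. An H3K27me3 peak was found at 277 HA-specific regions (40.1%; 36.5 to 43.9) and at 218 shared regions (80.1%; 74.9 to 84.7), where the percent called over all regions was 34.1. It was found at 27.3 and 29.5% of the regions of HA replicates 1 and 2 alone, at 48.5% of those of IgG replicate 2 alone (42.6 to 54.4), at 10 of the 45 of IgG replicate 1 alone (22.2%; 11.2 to 37.1), and at 7 of the 11 IgG-only regions. Windows moved by 2 kb met the mark's peaks in 2.97% of cases for HA-specific and 8.27% for shared regions. These intervals cover counting error within 1 library, and regions are not replicates of it. Of the shared regions, 24 lay in a single group on chromosome 9, and 20 of these had the mark. The classes with IgG peaks and no HA peak lay on both sides of the share over all regions.

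The peaks of the H3K27me3 list that HA-specific regions met were mostly weak in that list, with a median percentile of 34.2, and those met by shared regions had a median of 63.1. Counted at the base of the summit alone, an alternative added after the data were seen, the mark's peaks covered 28.6% of HA-specific and 78.3% of shared regions. Over all regions the share at the summit base was 28.6% as well, so the excess of the HA-specific class over all regions was gone by this measure. Among shared regions the share was 91.9% in the 136 with the better mean rank and 68.4% in the other 136, and for HA-specific regions it was 40.6 and 39.7% in the 345 of better and the 345 of poorer rank. Where the local background was at most 5 times the lowest, it was 77.0% of 187 shared regions and 40.2% of 651 HA-specific regions, beside 33.3% of all such regions. Of the HA-specific regions present in all 4 induced HA lists, 253 met an H3K27me3 peak (42.9%) and 337 did not. Of all 2500 regions in the 4 induced lists, 46.3% met one, which is slightly more. Since IgG peaks and peaks of the mark coincide at shared regions in 1 library, the part of background cutting in that library was not tested.

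**Figure D5:**
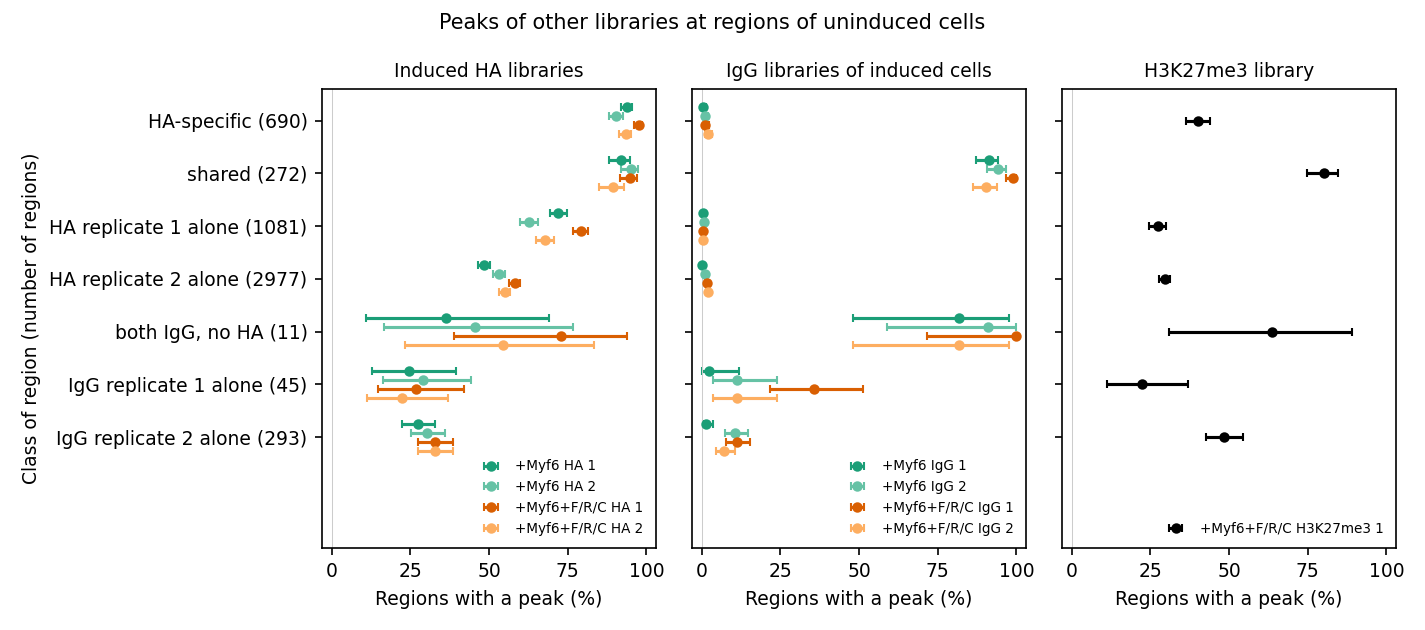
Share of regions (%) of each class, with the number of regions in brackets, that have a peak in the induced HA libraries (left), the IgG libraries of induced cells (middle) and the H3K27me3 library (right), with exact 95% intervals as bars. HA-specific regions lie at 90.4 to 97.5% in the left panel and at 0.435 to 2.03% in the middle one, and shared regions lie near the top of both.

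Part of the HA excess was lost when depth was evened out by calculation, and most of the HA-specific class was lost when the lists were cut to equal length or to strong peaks. When pileup and background of each HA peak were scaled by binomial thinning to the fragments per 10 kb of the paired IgG library, 1687 of 2130 HA peaks in replicate 1 and 3389 of 4138 in replicate 2 were expected to be called, 3.57 and 4.57 times the IgG counts. Of the 690 HA-specific peaks, 579 (83.8%) and 612 (88.7%) were expected to be called at IgG depth. When thinned to the mean pileup of the paired IgG library instead, which also takes the fragment length into account, 430 (62.4%) and 642 (93.1%) were. Of all HA peaks, 1219 in replicate 1 and 3646 in replicate 2 were expected to be called on this scale. These are 2.58 and 4.91 times the IgG counts. With each HA list cut by −log10 p to the length of its IgG list, 72 HA-specific, 209 shared and 46 IgG-only regions were found. This cut keeps only the strongest HA peaks. HA-specific peaks had median percentiles of 58.9 and 65.5 in their lists, so the loss of most of them follows from these ranks. With a −log10 q of at least 5 in all lists there were 243 HA-specific, 244 shared and 15 IgG-only regions. At equal length, 48.7% of the HA peaks in replicate 1 and 57.7% in replicate 2 had no peak in the paired IgG list.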

How the data were processed

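The data were lists of narrow peaks, 1 per library, so replicates had not been pooled. Per the submitters' processing notes, MACS2, deepTools and DiffBind were used with the GRCm39 build. Which versions, filters or aligner were used is not given in the sources used here. The deposited columns used were the summit's fold enrichment (a ratio to local background) and the −log10 of its p-value and q-value. The deposited integer score was not used. These values are relative to their own library. They were used to rank and filter peaks within a list, and values of different lists are given side by side as a description.

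Summit pileups were recovered as the whole numbers of fragments for which a Poisson tail and the deposited fold give the deposited −log10 p. They matched within 0.002 for all peaks. Depth was taken as the mean number of fragments per 10 kb, from the lowest expected pileup and the width of the narrowest peak. Recovery, merging and thinning were tested on simulated data. Lists were merged on chromosomes 1 to 19 where intervals shared 1 bp. Regions are not replicates, so no p-value was computed across them, and the number of peaks was compared by exact permutation over libraries. Named regions are the 10 of each class with the best mean rank of −log10 p, or all 11 of the IgG-only class. The pairing of HA with IgG comes from the labels' protocols (shared nuclei). Presence of a peak in replicate 1 minus presence in replicate 2, taken per region, had a correlation of -0.058 between HA and IgG. Most regions had a peak in a single list, where the difference of the other antibody was fixed, so this value does not test the pairing. The classes, lists and tests were chosen with earlier results of these data known. Distances to start sites, sequence motifs, genes near regions and the cell type markers had been planned and were not run, because the reference tables at hand are of another build. Python 3.11.15, NumPy 2.4.6, SciPy 1.17.1, pandas 2.3.3 and matplotlib 3.10.9 were used.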

Additional observations from a re-analysis of the deposited data

Results flagged for a closer look

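On chromosome X, which the comparisons leave out, the HA lists of uninduced cells held 45 peaks in replicate 1 and 87 in replicate 2. The paired IgG lists held 22 and 34 peaks there. The ratios of HA to IgG peaks on chromosome X were thus 2.05 in replicate 1 and 2.56 in replicate 2. On the autosomes the ratios of the same pairs were larger, at 4.51 and 5.58. The HA lists were therefore longer on chromosome X too, by a smaller factor than on the autosomes.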

How the results depend on the processing

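The log2 ratio of HA to IgG peak numbers, 2.37, kept its sign under 10 alternatives and turned to -0.11 at a −log10 q of at least 20, a threshold chosen after the data were seen. With the replicate block (within-pair ratios, exact sign flips) it was 2.33, with p = 0.5, the smallest that 2 pairs allow. Leaving out 1 library gave 1.81 to 2.77, and no alternative could pass 0.05. The 690 HA-specific regions became 243 at a −log10 q of at least 5 in all lists, 72 with HA lists at IgG length, and 1811 to 3728 within a single replicate pair. The 11 IgG-only regions became 46 at equal length and 128 to 327 within a single pair. The 272 shared regions stayed within 1.5 times of that number under all 8 alternatives. The lowest count was 187, with a local background of at most 5 times the lowest, and the highest 406, without replicate 1. The share of HA peaks without a paired IgG peak, 85.0 and 90.1% in replicates 1 and 2, was 72.7 and 74.4% for HA peaks with a −log10 q of at least 5, 83.2 and 88.8% against both uninduced IgG lists, 81.3 and 85.5% against all 6 IgG lists, and 48.7 and 57.7% at equal length. At the summit base, 78.4% of HA-specific regions were in all 4 induced HA lists (39.3% of all regions) and 28.6% in the H3K27me3 list, which equals the 28.6% of all regions, so the excess found by any overlap was lost. Alternatives for start sites and motifs were not run, since no annotation or genome of the build was used. Recovered pileups near the limit of each list, and peaks of few fragments, restrict what the strengths can show.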
